A study of Mus musculus with 24 samples.

Results

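Genes for 6 RNA-binding proteins were followed through chronic social defeat stress (CSDS) in the mouse lateral septum: the cold-induced Rbm3 and Cirbp, Hnrnpdl, and the Hnrnpdl relatives Hnrnpd, Hnrnpab and Hnrnpa2b1. They are 6 of the 28859 genes in the deposited count table, and all 6 passed the filter on low counts that left 18060 genes for testing. The 6 genes were chosen by name with earlier results of these libraries known, among them the CSDS comparisons below, so their differences and p-values are given as a description and support nothing beyond these libraries. The tissue came from male mice of the inbred strain C57BL/6J, aged 8 to 14 weeks per the labels, which name no transgene or deletion in any group, on day 1, 4, 7 or 10. Stressed mice met an aggressive CD-1 male for 10 min each day and were then kept apart from it by a barrier. Controls of each day were housed alike but not defeated. There were 3 libraries in each of the 8 groups, and the labels do not say whether each library is a single animal, so p-values measure the spread between libraries.

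Rbm3 and Cirbp belong to a small family of glycine-rich proteins that rise when cells cool by a few degrees and bind many mRNAs. In neurons Rbm3 is known for its role in protein synthesis and synapse maintenance at low body temperature, and Cirbp for binding the ends of clock gene transcripts. Mild warming lowers both, while heat shock proteins, the chaperones that refold damaged proteins, rise with heat. Hnrnpdl and Hnrnpd are sister genes whose proteins bind AU-rich elements in mRNAs and set how long these last. Hnrnpab binds mRNAs that travel along neurites, and Hnrnpa2b1 binds trafficking signals in mRNAs and takes part in splicing.

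The bases before the annotated start sites were searched for motifs of cold, heat and clock response, since the members differ in how they are known to respond to temperature. RefSeq windows of 250 bases (build GRCm38.p6) were at hand for 5 of the 6 members, 7 windows in all, with none for Rbm3. Shown are the upstream window of Cirbp that holds the mild cold response element, an SP1-bound motif described for this gene, in capitals, and the window of Hnrnpdl, which holds none of the capitalised motifs and serves for comparison. The Cirbp window is chr10:80167589-80167838 on the plus strand with 65.6% G or C, and the Hnrnpdl window is chr5:100039223-100039472 on the minus strand with 72% G or C.
Cirbp: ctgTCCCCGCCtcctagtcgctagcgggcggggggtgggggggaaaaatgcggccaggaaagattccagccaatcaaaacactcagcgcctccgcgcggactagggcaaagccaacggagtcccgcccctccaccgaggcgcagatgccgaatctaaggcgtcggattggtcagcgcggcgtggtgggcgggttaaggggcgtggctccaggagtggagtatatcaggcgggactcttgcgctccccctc
Hnrnpdl: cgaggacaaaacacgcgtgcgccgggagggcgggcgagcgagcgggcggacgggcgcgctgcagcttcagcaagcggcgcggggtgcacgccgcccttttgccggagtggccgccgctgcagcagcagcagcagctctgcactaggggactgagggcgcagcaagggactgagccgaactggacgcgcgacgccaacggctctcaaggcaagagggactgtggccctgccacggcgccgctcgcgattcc
TCCCCGCC, searched on both strands, begins 247 bases before the more upstream of 2 Cirbp start sites. The window of the other Cirbp start site holds no match. The motif occurs in 4.64% of the 32851 mouse windows of this length. The heat shock element core (GAANNTTC or TTCNNGAA, both strands) is in 12.8% of the windows and, among the members, only in the window of the more downstream of 2 Hnrnpa2b1 start sites, where 2 overlapping matches begin 38 and 33 bases before it. The E-box CACGTG, bound by the clock proteins, is in 6.02% of the windows and, among the members, in that of Hnrnpd. GC boxes (GGGCGG, both strands) are in 32.7% of all windows; each of the printed windows holds 3, none overlapping the cold element match. These matches describe the letters of the windows only.

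Total counts per library ran from 31182747 to 41205354, and between 21521 and 22551 genes were detected. Markers of lateral septum neurons were present throughout, with Trpc4 between 80.4 and 158 CPM (counts scaled to library size after TMM) and Gad1, a GABA-synthesising enzyme, between 758 and 1150 CPM. The libraries differed in RNA from neighbouring tissue: the choroid plexus gene Ttr lay between 5.01 and 8945 CPM, and Slc17a7, of cortical and hippocampal neurons, between 15.9 and 524 CPM. Day 10 control replicate 1 stood apart from the other libraries and had the lowest total count, so the day 10 differences of the members and the medians of the lists are also given without it. In tissue RNA, a change in the number of cells of a type and a change in RNA per cell cannot be told apart.

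On the FPKM scale, which divides counts by gene length and depth, the mean level over the 24 libraries was 105 for Hnrnpa2b1, 55.4 for Hnrnpab, 32.1 for Hnrnpdl, 26.6 for Cirbp, 22.4 for Hnrnpd and 11.3 for Rbm3. Hnrnpa2b1 lay above Hnrnpab, Hnrnpab above Hnrnpdl, and Hnrnpd above Rbm3 in 24 of 24 libraries. The middle of the order was less separated: Hnrnpdl lay above Cirbp in 18 libraries and Cirbp above Hnrnpd in 19. Cirbp and Rbm3 spanned the widest ranges on this scale, with the highest library 2.04-fold and 1.94-fold above the lowest, against 1.89-fold for Hnrnpdl, 1.59-fold for Hnrnpa2b1, 1.34-fold for Hnrnpd and 1.26-fold for Hnrnpab. Raw counts were between 1004 and 2171 for Rbm3, the least covered member, and between 13118 and 21166 for Hnrnpa2b1. The processed pseudogene Rbm3-ps had between 6 and 45 counts in these libraries, and reads shared with it could not be separated from those of Rbm3.

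**Figure D1:**
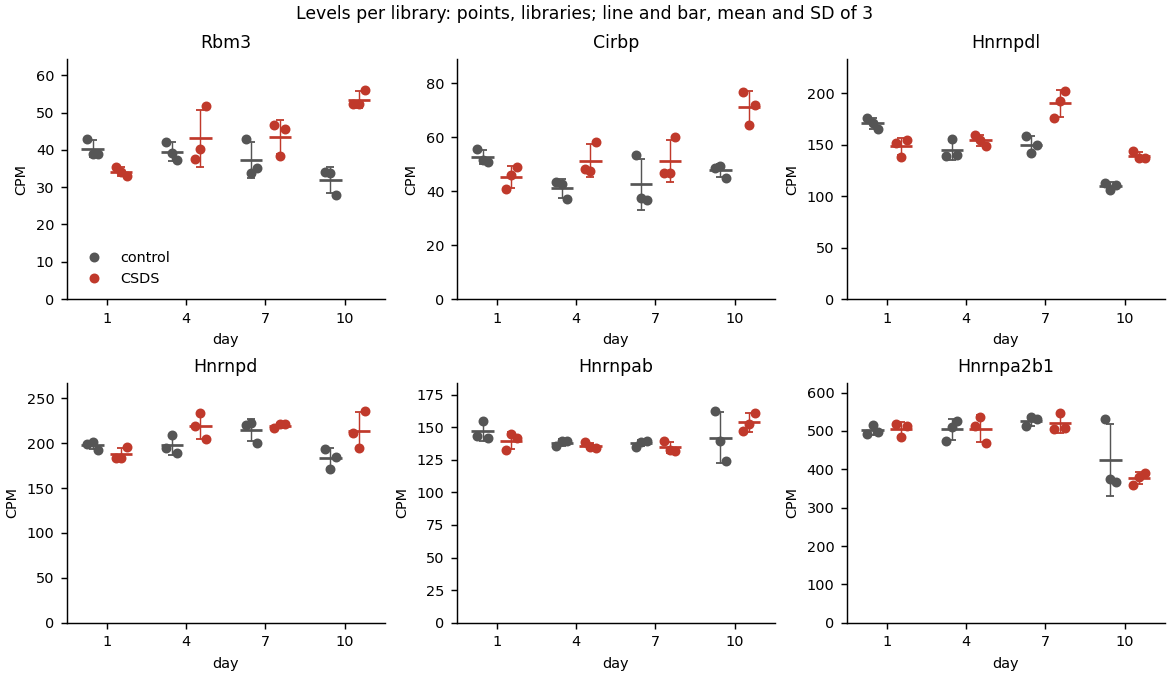
Levels of the 6 genes in each library (CPM after TMM scaling, axes from 0) by day, with controls in grey and stressed mice in red; points are libraries, lines and bars are the mean and SD of 3. On day 10 the stressed libraries lie above all control libraries for Rbm3, Cirbp, Hnrnpdl and Hnrnpd, and on day 1 they lie below them for Rbm3, Cirbp and Hnrnpdl.

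Rbm3 (Entrez 19652) was lower in stressed than in control libraries on day 1 and higher on day 10. On day 1 the controls stood at 42.9, 38.9 and 39.0 CPM and the stressed libraries at 35.4, 34.2 and 32.9 CPM. On day 4 the controls stood at 42.2, 39.1 and 37.3 CPM and the stressed libraries at 37.5, 40.1 and 51.8 CPM. The day 1 groups did not overlap, whereas on day 4 a single stressed library was high and the rest lay within the control range. On day 7 the controls had 42.9, 33.7 and 35.2 CPM and the stressed libraries 46.7, 38.3 and 45.6 CPM. On day 10 the controls had 34.0, 33.9 and 28.0 CPM and the stressed libraries 52.2, 52.3 and 56.0 CPM. Day 7 groups overlapped, and on day 10 every stressed library stood well clear of the controls. The day 10 means were 31.9 ± 3.4 and 53.5 ± 2.2 CPM (SD, n = 3), a 1.68-fold difference.

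In the edgeR quasi-likelihood model over all genes, Rbm3 had log2 fold changes (CSDS minus control) of -0.24, 0.13, 0.22 and 0.74 in order of the days, each with an SE of 0.11, and the adjusted p-values were 0.630, 0.824, 0.999 and 0.0109. The 95% interval of the last difference was 0.51 to 0.98. By p-value Rbm3 ranked 2 among the 18060 genes on day 10. An adjusted p under 0.05, taken as a call, was reached on day 10 by 2 of the 6 members, Rbm3 and Hnrnpdl, against 0.166% of all genes tested, but the members were picked with this contrast in view. By edgeR no member was called on day 1, 4 or 7, when 0.00554%, 0.111% and 0.00554% of all genes were, or in the mean of the 4 days, when 0.116% were. At an unadjusted p under 0.05 the members counted 2, 2, 2 and 4 in these comparisons, against 7.88%, 8.33%, 4.28% and 6.47% of all genes, and DESeq2 called 0, 0, 1 and 1, in both cases Hnrnpdl. Rbm3 on day 10 was 0.79 (adjusted p = 0.0146) without day 10 control replicate 1. The call was lost with the libraries of day 10 alone (0.73, adjusted p = 0.241) and without day 10 CSDS replicate 1 (0.76, adjusted p = 0.0509) or replicate 3 (0.69, adjusted p = 0.0810).

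Cirbp (Entrez 12696) was likewise lower in stressed libraries on day 1 and higher on day 10. On day 1 the controls had 55.6, 51.7 and 50.7 CPM and the stressed libraries 40.9, 45.9 and 49.2 CPM. On day 4 the controls had 43.3, 42.8 and 37.2 CPM and the stressed libraries 48.2, 47.4 and 58.3 CPM. The groups did not overlap on either day, with the stressed libraries below the controls on day 1 and above them on day 4. On day 7 the controls had 53.3, 37.5 and 36.9 CPM and the stressed libraries 46.8, 46.7 and 60.2 CPM. On day 10 the controls had 48.8, 49.4 and 45.0 CPM and the stressed libraries 76.8, 64.7 and 72.1 CPM. Day 7 overlapped because of 1 high control, and on day 10 the means were 47.7 ± 2.3 and 71.2 ± 6.1 CPM (SD, n = 3), 1.49-fold apart.

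Log2 fold changes of Cirbp (CSDS minus control) were -0.22, 0.32, 0.27 and 0.58 in order of the days, each with an SE of 0.13, and the adjusted p-values of the edgeR quasi-likelihood test were 0.692, 0.488, 0.999 and 0.0628. It ranked 43 by p-value on day 10 and missed the threshold there. The day 7 difference ran from 0.14 without CSDS replicate 3 of that day to 0.45 without control replicate 1. Without day 10 control replicate 1 its day 10 difference was 0.59 (adjusted p = 0.166). With DESeq2 it was 0.57 with an adjusted p of 0.00500, and with no filter on low counts 0.58 with an adjusted p of 0.0248.

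Hnrnpdl (Entrez 50926) differed in both conditions between days, and its difference between stressed and control libraries turned from lower on day 1 to higher on days 7 and 10. On day 1 the controls had 176, 171 and 165 CPM and the stressed libraries 152, 138 and 155 CPM. On day 4 the controls had 139, 155 and 140 CPM and the stressed libraries 159, 154 and 149 CPM. Stressed libraries were thus below all controls on day 1 and overlapped them on day 4. On day 7 the controls had 158, 141 and 150 CPM and the stressed libraries 176, 193 and 202 CPM. On day 10 the controls had 113, 106 and 111 CPM and the stressed libraries 144, 137 and 137 CPM. On both later days each stressed library exceeded each control, while day 10 had the lowest group mean of the gene in each condition.

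Log2 fold changes of Hnrnpdl (CSDS minus control) were -0.20, 0.09, 0.34 and 0.34 in order of the days, each with an SE of 0.06, and the adjusted p-values of the edgeR quasi-likelihood test were 0.461, 0.749, 0.135 and 0.0266. These are ratios of 1.27 on both later days, from 150 ± 8 to 190 ± 13 CPM on day 7 and from 110 ± 3 to 139 ± 4 CPM on day 10 (SD, n = 3). By p-value the gene ranked 2 on day 7 and 11 on day 10. The day 10 call was lost in each of the 6 runs that left out 1 library of that day, with adjusted p between 0.0542 and 0.160; it was 0.35 (adjusted p = 0.0542) without control replicate 1. With the replicate number as a block the difference was 0.34 with an adjusted p of 0.0501, and with the libraries of day 10 alone 0.33 with an adjusted p of 0.549. DESeq2 called the day 7 difference too (0.34, adjusted p = 0.00237).

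**Figure D2:**
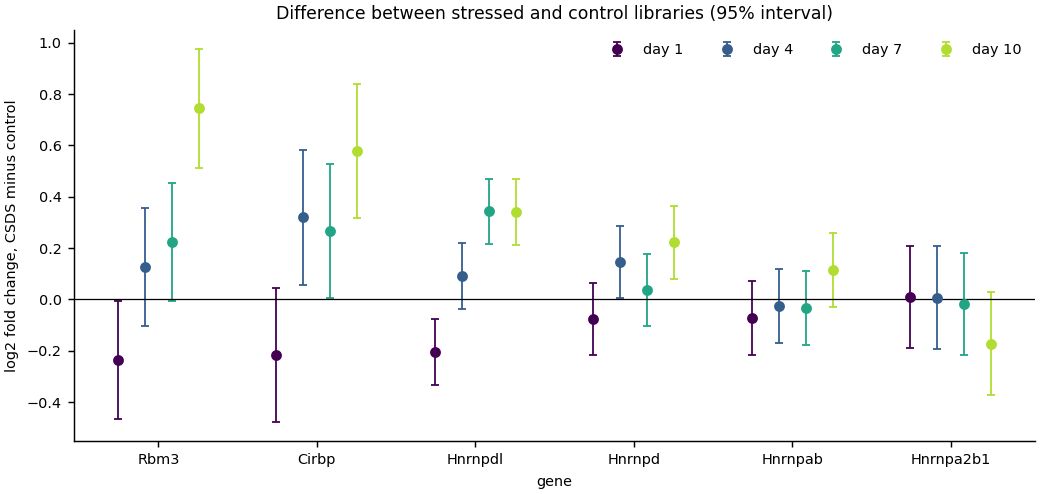
Log2 fold change of each gene (CSDS minus control, y axis) with its 95% interval on days 1, 4, 7 and 10, from the edgeR quasi-likelihood model. The values of Rbm3 run from -0.24 on day 1 to 0.74 on day 10, those of Hnrnpdl from -0.20 to 0.34, and the intervals of Hnrnpab and Hnrnpa2b1 include 0 on all 4 days.

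Hnrnpd (Entrez 11991), the closest relative of Hnrnpdl and its neighbour on chromosome 5, with 1 protein-coding gene between them in the GRCm38 gene table, showed smaller differences. Its controls on day 10 had 193, 172 and 185 CPM and its stressed libraries 211, 195 and 236 CPM, which do not overlap although the gap is narrow. The log2 fold change was 0.22 there (SE 0.07, adjusted p = 0.210, edgeR quasi-likelihood), 0.26 without control replicate 1 (adjusted p = 0.269) and 0.12 without CSDS replicate 3 (adjusted p = 0.600). It was -0.07, 0.15 and 0.036 on days 1, 4 and 7, with overlapping groups.

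Hnrnpab (Entrez 15384) and Hnrnpa2b1 (Entrez 53379) stayed within overlapping ranges on all 4 days. Group means of Hnrnpab ran only from 134 ± 4 to 154 ± 7 CPM (SD, n = 3), and its log2 fold changes from -0.07 on day 1 to 0.11 on day 10 (95% interval -0.029 to 0.26, adjusted p = 0.490, edgeR quasi-likelihood). The day 10 value of Hnrnpab rested on the choice of controls, at 0.22 without control replicate 1 (adjusted p = 0.220) and 0.0028 without control replicate 3 (adjusted p = 0.988). Hnrnpa2b1 lay between 469 and 548 CPM in all 18 libraries of days 1, 4 and 7. On day 10 its controls had 532, 374 and 368 CPM and its stressed libraries 359, 379 and 391 CPM. Only day 10 control replicate 1 kept the level of the earlier days. The day 10 log2 fold change of Hnrnpa2b1 was -0.17 (adjusted p = 0.457, edgeR quasi-likelihood) with that library and 0.015 (adjusted p = 0.951) without it.

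Counted over the 6 members, stressed and control libraries did not overlap for 3, 1, 1 and 4 members in order of the days, against 11.6%, 15.6%, 9.83% and 15.6% of all genes tested. The 3 on day 1 were all lower in stressed mice and the others all higher. The median log2 fold change of the members was -0.14, 0.11, 0.13 and 0.28 on days 1, 4, 7 and 10, beside medians over all genes of -0.0074, 0.0015, 0.0028 and 0.018. Without day 10 control replicate 1 the members' day 10 median was 0.30.

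An F test per gene in the same model asked if the 4 daily differences were unequal. Hnrnpdl had an adjusted p of 0.0271 (rank 3), Rbm3 of 0.0514 (rank 13) and Cirbp of 0.206 (edgeR quasi-likelihood). The other 3 members had adjusted p of 0.403, 0.673 and 0.805. Among all genes, 0.0221% were called in this test. The Hnrnpdl call was lost in 9 of the 24 runs that left out 1 library: without day 1 control replicate 1 or 2, day 1 CSDS replicate 2, day 4 CSDS replicate 2, day 7 control replicate 2, day 7 CSDS replicate 2 or 3, day 10 control replicate 2 or day 10 CSDS replicate 1, with adjusted p up to 0.0903. It was also lost with the replicate block (adjusted p = 0.0549). Rbm3 was called without day 4 CSDS replicate 3 (adjusted p = 0.0310) or day 7 control replicate 1 (adjusted p = 0.0474).

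Levels were also compared between days within a condition, by an F test over all 4 days. The adjusted p-values here are of that test and not of day 1 against day 10. Among stressed libraries 5 of the 6 members were called, all but Hnrnpab, against 47.9% of all genes. Among controls edgeR called Hnrnpdl alone (adjusted p = 1.4e-06, edgeR quasi-likelihood), against 40.7% of all genes. Its mean fell from 171 ± 5 CPM on day 1 to 110 ± 3 CPM on day 10 (SD, n = 3). Hnrnpa2b1 narrowly missed the threshold among controls (adjusted p = 0.0541, edgeR quasi-likelihood), and DESeq2 called it there beside Hnrnpdl. With 1 control left out, edgeR called Hnrnpa2b1 in 1 of 12 runs, with adjusted p from 3.6e-05 to 0.306. Rbm3 controls went from 40.3 ± 2.3 to 31.9 ± 3.4 CPM over the same days (adjusted p = 0.0655), while stressed libraries went from 34.2 ± 1.3 to 53.5 ± 2.2 CPM (adjusted p = 6.8e-04). The labels give no collection or sequencing batch, so day and batch cannot be told apart in these tests.

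By their median, heat shock proteins lay opposite to the members on all 4 days. Of 25 genes listed, 18 were above 0 on day 1 with a median log2 fold change of 0.10, and 25, 24 and 22 were below 0 on days 4, 7 and 10 with medians of -0.24, -0.17 and -0.36. Without day 10 control replicate 1, 19 were below 0 on day 10 and the median was -0.17. On day 4 the inducible chaperones Hspa1a (-2.17) and Hspa1b (-2.19), the co-chaperone Dnajb1 (-0.91) and the small heat shock protein Hspb1 (-1.26) were called lower. On day 10 Hspb1 (-1.89), Hsph1 (-0.60), a nucleotide exchange factor of Hsp70, and Stip1 (-0.42), which links Hsp70 to Hsp90, were called lower, Stip1 narrowly (adjusted p = 0.0499). With 1 library of the day left out, Dnajb1 on day 4 and Hspb1 on day 10 were called in 6 of 6 runs and Hspa1a on day 4 in 5, all but that without CSDS replicate 2 (adjusted p = 0.0683). Hsph1 on day 10 was called in 3 of the 6 runs; its call was lost when stressed library 1 or 3 or the first control was left out, with adjusted p up to 0.136. Hspb1 on day 4 was called only without control replicate 2 or CSDS replicate 3, Hspa1b on day 4 only without control replicate 2, and Stip1 on day 10 only without control replicate 3. With the libraries of the day alone Dnajb1 on day 4 was the one call left (adjusted p = 0.0290). The edgeR calls on days 4 and 10 were 4 and 3 of the 25, against 0.111% and 0.166% of all genes. DESeq2 called 6 and 7 there. On those days 14 and 17 had an unadjusted p under 0.05, against 8.33% and 12.8% of all genes. In the mean of the 4 days all 25 were below 0, and edgeR called 5, against 0.116% of all genes. The edgeR test between days called 2, against 0.0221%. None of the list was called by edgeR or DESeq2 on day 1 or 7, when 1 and 9 had an unadjusted p under 0.05, against 7.88% and 4.28% of all genes. Hsph1 had the smallest on day 7 (-0.38, adjusted p = 0.502). Hsph1 on day 10 stood at 473, 376 and 377 CPM in controls and 253, 282 and 276 CPM in stressed libraries. Hspb1 there stood at 20.5, 13.9 and 11.3 CPM in controls and 4.08, 5.21 and 3.02 CPM in stressed libraries. Neither gene's groups overlapped on day 10, and control replicate 1 was the highest library for both. Dnajb1 had 58.6 ± 3.4 and 61.7 ± 1.3 CPM in controls and stressed mice on day 10 (SD, n = 3). On day 4 it stood at 134, 104 and 113 CPM in controls and 69.0, 58.6 and 59.2 CPM in stressed libraries, and Hspa1a at 38.5, 13.4 and 22.8 CPM and 6.81, 4.31 and 5.52 CPM. Dnajb1, Hspa1a and Hspa1b had their largest gap on day 4. Hspb1 and Hsph1 had theirs on day 10, as did Rbm3 and Cirbp. The list median was also farthest from 0 on day 10 (-0.36), but not without control replicate 1 of that day (-0.17).

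**Figure D3:**
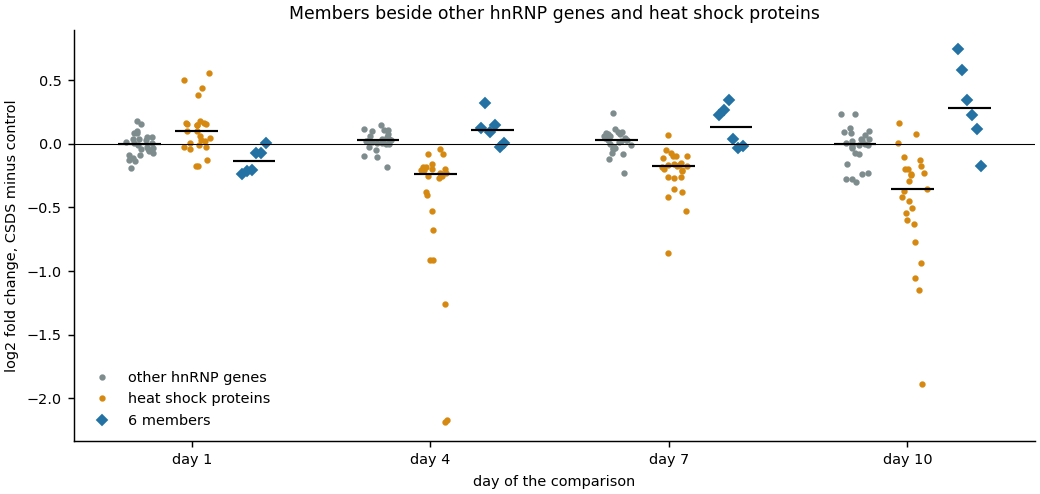
Log2 fold change (CSDS minus control, y axis) on each day for 26 other hnRNP genes (grey), 25 heat shock proteins (orange) and the 6 members (blue); points are genes and lines are medians. The heat shock medians are 0.10, -0.24, -0.17 and -0.36 and those of the members -0.14, 0.11, 0.13 and 0.28 on days 1, 4, 7 and 10, while the other hnRNP genes stay near 0.

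Other hnRNP genes were spread around 0 on each day. Of 26 listed, 12 were above 0 on day 10 with a median log2 fold change of -0.0049, and medians on days 1, 4 and 7 were -0.0043, 0.030 and 0.029. None was called in any CSDS comparison by edgeR, although 2, 3, 2 and 6 had an unadjusted p under 0.05 on days 1, 4, 7 and 10, against 7.88%, 8.33%, 4.28% and 12.8% of all genes. DESeq2 called 2 on day 10, Hnrnpc among them. Without day 10 control replicate 1, 15 were above 0 on day 10 with a median of 0.032. On day 10 Hnrnpc, which binds uridine tracts in nascent RNA, had a log2 fold change of -0.28 (adjusted p = 0.0907). The smallest p-values on day 7 belonged to Rbmx, a splicing regulator (0.24, adjusted p = 0.905), and Hnrnpm (-0.23, adjusted p = 0.999). Between days 17 of the 26 were called among controls and 20 among stressed libraries.

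Of 4 lists of genes tied to the members by function, none held a gene called in a CSDS comparison by edgeR. DESeq2 called Per1 on day 4 and in the mean, Ciart on day 10, and Per1, Ciart and Clk1 in the test between days, and no other gene of these lists. At an unadjusted p under 0.05 on day 10 there were 0 AU-rich element binding genes, 3 genes tied to Rbm3 or Cirbp, 6 clock genes and 1 gene of nonsense-mediated decay, against 12.8% of all genes tested. Without day 10 control replicate 1 the medians of these lists on day 10 were 0.036, -0.035, 0.039 and 0.030. Of 10 genes for AU-rich element binding proteins, which share targets with Hnrnpd, 6 were above 0 on day 10 with a median of 0.011. The smallest p-value there belonged to Tia1, a stress granule protein (-0.23, adjusted p = 0.448). Of 11 genes tied to Rbm3 or Cirbp, 5 were above 0 on day 10 with a median of -0.046. Clk1, a temperature-sensitive kinase of splicing factors, was 0.36 on day 7 (adjusted p = 0.502) and -0.23 on day 10 (adjusted p = 0.304), and Hsf1, the activator of heat shock genes, was -0.21 on day 10 (adjusted p = 0.353). Of 20 clock genes, 14 were above 0 on day 10 with a median of 0.10; Ciart, a clock repressor, was 0.62 (adjusted p = 0.135) and Cry2 0.23 (adjusted p = 0.206). Per1 was -0.56 on day 1 (adjusted p = 0.404) and -0.67 on day 4 (adjusted p = 0.142). Of 10 genes of nonsense-mediated decay, which degrades the poison-exon transcripts of several RNA-binding proteins, 7 were above 0 on day 10 with a median of 0.022.

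Markers of other tissue differed between stressed and control libraries too. The edgeR model of all libraries called 1 of 6 endothelial markers higher on day 4, against 0.111% of all genes, and no other marker on a single day. DESeq2 called the endothelial gene Vwf on days 4 and 7. On day 7 DESeq2 called 3 blood markers, and edgeR on the libraries of that day alone called 5. At an unadjusted p under 0.05 on day 10 there were 2 striatal, 1 cortical and 1 lateral septum marker, against 12.8% of all genes tested. So were 4 of 6 endothelial markers (3 above and 3 below 0, median -0.14), 1 microglial and 1 oligodendrocyte precursor marker. The choroid plexus, ependymal, astrocyte, myelin, cholinergic and blood lists had 0 there. On day 10 all 12 choroid plexus markers were below 0 in stressed mice (median -1.45), with summed levels of 4768 to 14205 CPM in controls and 334 to 9863 CPM in stressed libraries, and all 8 striatal markers were below 0 (median -0.50). Myelin (6 of 6 below, median -0.24) and medial septum cholinergic markers (5 of 5 below, -0.29) were lower too, while 7 of 8 cortical markers (0.46), 10 of 12 lateral septum markers (0.16) and 5 of 5 blood markers (1.51) were above 0. Without day 10 control replicate 1 the medians were -1.09 for choroid plexus, -0.83 for striatum, 0.44 for cortex, 0.12 for lateral septum and 1.67 for blood. The blood sums on day 10 were 9.63 to 29.6 CPM in controls and 2.05 to 146 CPM in stressed libraries, a range that enclosed the controls. The mean centred log2 CPM of the 5 blood markers was lower in stressed libraries (mean 0.73, range -1.42 to 4.18) than in controls (1.10, 0.18 to 1.75). On day 7 all 5 blood markers were above 0 (median 5.35), with sums of 0.586 to 4.44 CPM in controls and 68.6 to 97.0 CPM in stressed libraries, all 8 cortical markers were below 0 (median -1.06), and all 12 choroid plexus markers were above 0 (median 0.78), with sums of 263 to 5319 CPM in controls and 582 to 4653 CPM in stressed libraries. On day 4 all 12 choroid plexus markers (median -1.41), all 6 ependymal markers (-0.39) and all 12 lateral septum markers (-0.077) were below 0, and all 5 blood markers were above 0 (2.68). The choroid plexus sums on day 4 were 303 to 9685 CPM in controls and 300 to 5218 CPM in stressed libraries, and the blood sums 0.556 to 4.90 CPM and 6.68 to 19.7 CPM. On day 1 all 12 choroid plexus markers were above 0 (median 3.53), with sums of 223 to 999 CPM in controls and 279 to 12801 CPM in stressed libraries, and all 8 cortical markers were below 0 (median -1.06). No choroid plexus, cortical or striatal marker was at 0 counts in any library, and Hba-a2 and Alas2 were at 0 in 1 library each. With choroid plexus and cortex scores as covariates the day 10 log2 fold change was 0.73 for Rbm3 (adjusted p = 0.0280), 0.46 for Cirbp (adjusted p = 0.237) and 0.33 for Hnrnpdl (adjusted p = 0.0924), and that of Hnrnpdl on day 7 was 0.33 (adjusted p = 0.506). The part of striatal, endothelial and blood RNA in these differences was not tested.

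Across the 24 libraries Rbm3 and Cirbp varied together. Pearson's r of their log2 CPM was 0.74 (permutation p = 4.0e-05, adjusted over 9 relations 3.6e-04) and Spearman's rho was 0.64 (permutation p = 9.5e-04, adjusted 0.00425). Without the 2 libraries farthest from the median r was 0.61. Within days 1, 4, 7 and 10 r was 0.68, 0.79, 0.84 and 0.96 over 6 libraries each (exact permutation, adjusted p from 0.113 to 0.178), values that still hold the difference between conditions. On deviations from the 8 group means r was 0.66 (permutation within groups, p = 0.0110, adjusted 0.0993). The relation thus kept its size among libraries of the same group but did not pass the adjustment there.

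Against the heat shock score, the mean centred log2 CPM of the 25 heat shock proteins, r was -0.55 for Rbm3 (permutation p = 0.00525, adjusted 0.0118) and rho was -0.61 (p = 0.00189, adjusted 0.00425). For Cirbp r was -0.65 (permutation p = 5.3e-04, adjusted 0.00238) and rho -0.62 (p = 0.00147, adjusted 0.00425), and for Hnrnpd r was -0.60 (permutation p = 0.00220, adjusted 0.00660) and rho -0.64 (p = 9.1e-04, adjusted 0.00425). Without the 2 libraries farthest from the median of the score these r were -0.63, -0.71 and -0.62. Hnrnpdl had r of -0.30 over all libraries (permutation p = 0.158, adjusted 0.203), but -0.74, -0.82, -0.92 and -0.72 within days 1, 4, 7 and 10 (exact permutation, adjusted p from 0.0750 to 0.178). Within days, in the same order, r was -0.87, -0.75, -0.93 and -0.76 for Cirbp (exact permutation, adjusted p from 0.0750 to 0.178) and -0.80, -0.28, -0.83 and -0.68 for Rbm3 (adjusted p from 0.113 to 0.791). These values still hold the difference between conditions. The one within-day relation with the score that passed the adjustment was the rho of Cirbp on day 1, which was -1 (exact permutation, adjusted p = 0.0250). On deviations from the group means r was -0.00023 for Rbm3, -0.37 for Cirbp, -0.37 for Hnrnpdl and -0.19 for Hnrnpd. None of these r passed the adjustment (permutation within groups, adjusted p from 0.240 to 0.9996). There rho was -0.031 for Rbm3 and -0.33 for Hnrnpd. It was -0.49 for both Cirbp and Hnrnpdl (permutation within groups, p = 0.0255 and 0.0315, adjusted 0.0944 for both), so rho did not pass either. Within a group of the same day and condition, libraries with more heat shock RNA thus did not have detectably less Rbm3. Hnrnpab (0.08) and Hnrnpa2b1 (0.40) did not pass the adjusted test over all libraries.

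**Figure D4:**
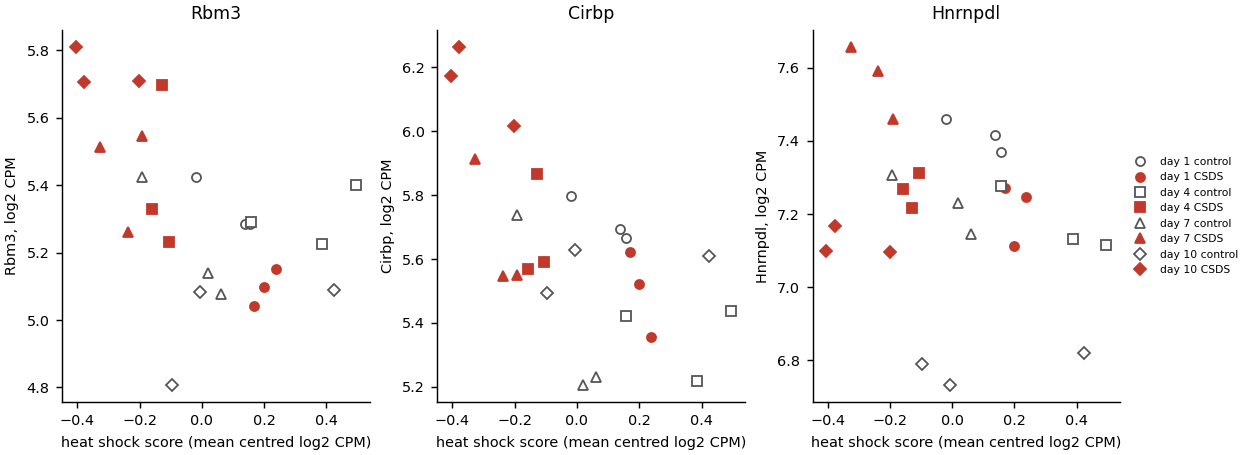
Log2 CPM of Rbm3, Cirbp and Hnrnpdl (y axes) against the heat shock score (x axis, mean centred log2 CPM of 25 heat shock proteins) in 24 libraries; symbols mark the day, open grey controls and filled red stressed mice. The day 10 stressed libraries have heat shock scores between -0.40 and -0.20 and the highest Cirbp levels, and the Hnrnpdl levels of day 10 lie below those of day 7 in both conditions.

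The genes whose pattern was most like that of a member were ranked by Pearson's r of log2 CPM over the 24 libraries among 9980 genes, as a description. For Rbm3 the highest were Eif2b3, a subunit of a translation initiation factor (0.78), Rtca (0.74), Cirbp (0.74), Brinp3 (0.71) and Tubgcp2 (0.70), and the lowest were Ints4 (-0.80), Rnpep (-0.77), Rbm28 (-0.75), Lman2l (-0.74) and Pacsin2 (-0.74). For Cirbp they were Eml2 (0.85), Ndst1 (0.84), Fhod3, Nudcd3 and Endov (all 0.82), and the lowest were Hsp90b1, the Hsp90 of the endoplasmic reticulum (-0.85), Hsph1 (-0.80), and Rpgrip1l, Chordc1 and Slc5a3 (all -0.77). For Hnrnpdl they were Rbmx (0.93), Scyl3 (0.86), Tbce (0.85), Tmem161b (0.85) and Gnl2 (0.84), and the lowest were Bcar3 (-0.86), Hsp90ab1, a cytosolic Hsp90 (-0.86), Ldah (-0.84), Abcg1 (-0.82) and Trp53inp2 (-0.81). With the group means removed, r with Rbmx was 0.77 for Hnrnpdl, r with Eml2 was 0.87 for Cirbp, and r with Eif2b3 was 0.46 for Rbm3. Among the members, Hnrnpdl had r of 0.54 with Hnrnpd and 0.55 with Hnrnpa2b1, while Cirbp had r of -0.59 with Hnrnpa2b1. All these libraries share the same scaling and the same 4 days.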

How the data were processed

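The deposited table of read counts per gene (whole numbers) and the deposited table of FPKM per gene hold 24 samples of poly(A) RNA, sequenced as directional 150 base pairs of reads, per the labels. Tools named in the submitters' processing notes are fastp, HISAT2 and HTSeq (no versions), and the build is GRCm39; the strand setting of the counting is not given in the sources used here. The authors' FPKM are counts over column totals and a fixed length per gene. The members and gene lists were chosen with earlier results of these data known. Counts were tested in R 4.3.3 with edgeR 4.0.16: filterByExpr by group, TMM, a quasi-likelihood model of 8 group means, contrasts of CSDS minus control and F tests between days. Two-sided p-values were adjusted over 18060 genes (Benjamini-Hochberg). SE was taken as the size of the log2 fold change over the root of F, and CPM came from edgeR after TMM. Precision is limited by 3 libraries per group, with 16 residual degrees of freedom. Relations used 100000 permutations, or all orders for 6 libraries. Named genes were the members, the 5 highest and 5 lowest correlated genes with at least 10 CPM, the called genes of each list or the 2 with the smallest p, and 5 heat shock genes; 1 gene of these is not reported here. Alternatives were RLE factors, DESeq2 1.42.0, no filter, at least 1 CPM in 3 libraries, limma 3.58.1 on log2(FPKM + 1) or log2(FPKM + 0.1), covariates, a replicate block, the day's libraries alone and each library left out. The labels do not say whether equal replicate numbers pair samples. Deviations of such libraries from their group means correlated between -0.42 and 0.18, which cannot decide this with 3 libraries per group. No replicate pair agreed within sampling noise (chi-square per degree of freedom of at least 10.3). Scripts were tested on simulated data. Names were matched by symbol, and promoter sequences are RefSeq's (GRCm38.p6).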

Additional observations from a re-analysis of the deposited data

Results flagged for a closer look

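The differences of Rbm3, Cirbp and Hnrnpdl between stressed and control libraries went opposite ways on day 1 and day 10: every stressed library lay below every control on day 1 and above every control on day 10. The edgeR F test of unequal daily differences gave adjusted p of 0.0514 for Rbm3, 0.206 for Cirbp and 0.0271 for Hnrnpdl, so Hnrnpdl alone passed. On day 1 these genes had log2 fold changes of -0.24, -0.22 and -0.20, and on day 10 of 0.74, 0.58 and 0.34. In order of the days, choroid plexus markers had medians of 3.53, -1.41, 0.78 and -1.45 and the heat shock list 0.10, -0.24, -0.17 and -0.36, beside -0.14, 0.11, 0.13 and 0.28 for the members. Apart from the fit with choroid plexus and cortex scores as covariates, their part in the turn was not tested.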

How the results depend on the processing

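Of 264 values of the members' log2 fold changes under the 9 alternatives other than leaving out a single library, 250 kept their direction and side of the threshold. With 1 library left out, 265 of 288 did. Most of these values were not called in the main model. Of its 2 calls, both on day 10, Rbm3 was called in 4 and Hnrnpdl in 0 of the 6 runs that left out 1 library of that day. With DESeq2, 23, 69, 11 and 128 genes were called on days 1, 4, 7 and 10, 60 in the mean of the 4 days and 198 in the test between days. DESeq2 added Cirbp on day 10 (0.57), and Hnrnpdl on day 7 (0.34) and in the mean (0.14). It also added Rbm3 (adjusted p = 1.0e-04) and Cirbp (0.0320) between days, and Hnrnpa2b1 in the test of days among controls. No filter on low counts gave 3, 2 and 37 genes on day 1, on day 7 and between days, and added Cirbp on day 10 (0.58) and Rbm3 between days (adjusted p = 0.0143). The replicate block gave 0, 9 and 2 genes on day 7, on day 10 and between days, and lost Hnrnpdl on day 10 (0.34) and between days (adjusted p = 0.0549); it changed no other member's call. Choroid plexus and cortex covariates gave 2, 37 and 3 genes on days 1, 4 and 10, lost Hnrnpdl on day 10 (0.33) and turned Hnrnpa2b1 on day 1 to -0.047. The day's libraries alone gave 8, 6 and 0 genes on days 4, 7 and 10 (1428 at an unadjusted p under 0.05 on day 10) and lost Rbm3 (0.73) and Hnrnpdl (0.33) there. On log2(FPKM + 0.1), 0 genes were called on day 7, 13 in the mean and 2 between days, and Hnrnpdl was lost on day 10 (0.33) and between days (adjusted p = 0.0777); log2(FPKM + 1) gave 2 genes and 0.0655 between days. Both FPKM scales turned Hnrnpa2b1 on day 7 (1.5e-04 and 1.4e-04) and Hnrnpab in the mean (0.0082 and 0.0084). RLE factors gave 0 genes on day 7 (778 at an unadjusted p under 0.05) and 13 between days, and at least 1 CPM in 3 libraries gave 15 between days. With 1 library left out, 0 to 1 genes were called on day 1, 3 to 18 on day 4, 0 to 0 on day 7, 1 to 45 on day 10, 12 to 26 in the mean and 1 to 20 between days. Over these runs Rbm3 ran from -0.027 to 0.22 on day 4 (below 0 without day 4 CSDS replicate 3) and from 0.64 to 0.79 on day 10, Cirbp from 0.20 to 0.28 in the mean (called without day 7 control replicate 1), and Hnrnpdl from 0.32 to 0.35 on day 10 and from 0.13 to 0.16 in the mean. Hnrnpd ran from -0.011 to 0.061 on day 7, Hnrnpab from -0.033 to 0.023 in the mean, and Hnrnpa2b1 from -0.0074 to 0.052 on day 1, -0.037 to 0.059 on day 4, -0.29 to 0.015 on day 10 and -0.073 to 0.0055 in the mean. Between days the adjusted p ran from 0.0310 to 0.149 for Rbm3 and from 0.0148 to 0.0903 for Hnrnpdl. Relations that changed sign were Hnrnpab with the heat shock score without the 2 farthest libraries (-0.066) and within day 1 (-0.34), Hnrnpa2b1 with the score within day 4 (-0.18), and Hnrnpdl with Rbm3 within day 4 (-0.15) and on deviations from group means (-0.047). The cause of these changes was not tested. Depth was ample for the members, and the 3 libraries per group limit precision.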
